A study of Homo sapiens with 6 samples.

Results

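Elafin, secretory leukocyte protease inhibitor (SLPI), WFDC2 and WFDC3 are secreted proteins built on the whey acidic protein (WAP) domain, and their genes lie in a cluster on the long arm of chromosome 20. The 4 genes PI3, SLPI, WFDC2 and WFDC3 were chosen by name, and every probe that the platform annotation gives to one of them was taken. Of the 16922 genes that the annotation names, these yielded 3 probes of the 24526 in the table, 1 each for PI3, SLPI and WFDC3. No probe is named for WFDC2 in the annotation used here, so WFDC2 was not analysed.

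A WAP domain is a small fold held together by disulfide bonds, and in the best-known members one of its loops blocks the active site of a serine protease. PI3 encodes elafin, which is made as a precursor with an inhibitory WAP domain and a stretch that transglutaminases cross-link to other proteins. Elafin inhibits neutrophil elastase and proteinase 3, and keratinocytes and other epithelial cells make it in response to interleukin-1 beta and tumour necrosis factor. SLPI carries tandem WAP domains, inhibits neutrophil elastase and cathepsin G, and shields progranulin from cleavage by elastase. WFDC2 encodes HE4, a secreted protein used as a serum marker of ovarian cancer.

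All samples were of PC3, an established line of human prostate cancer cells, grown in RPMI medium with serum. In 3 of them the cells carried a green fluorescent protein (GFP) transgene as the control, and in the other 3 a transgene for the G protein-coupled receptor kinase GRK3. Total RNA was hybridised to Illumina Ref8-v3 BeadChips, 1 array per sample. Neither the promoter that drives the transgenes nor whether each population is a clone or a pool is given in the sources used here, nor is it stated that the 3 samples of a group came from separate cultures. The spread between arrays, and every p-value that rests on it, may therefore be technical.

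Between 13780 and 14363 probes per array were above background at a detection p-value under 0.05, and mean signal per array lay between 1171 and 1387. Precision is limited by the number of arrays. The single GRK3 probe was above background on 0 of 6 arrays, with detection p-values from 0.104 to 0.262, so it does not check the labels. The epithelial markers KRT8, KRT18, KRT19 and EPCAM were detected on all 6 arrays. KLK3, the prostate-specific antigen gene, was detected on 0 arrays, as were the leukocyte genes PTPRC, ITGAM, MPO and CD3E, the fibroblast genes DCN and COL3A1, and the endothelial genes CDH5, VWF and KDR. Of the markers of other cell types, CD68, MS4A1, LUM, COL1A1 and PECAM1 were detected on all 6 arrays. Their limma adjusted p-values for the group difference ran from 0.412 to 0.975. The leukocyte gene CD14 was detected on 5 arrays, the fibroblast gene PDGFRB on 2 and the prostate gene KLK2 on 1. Values below are background-corrected, quantile-normalized log2 intensities (neqc of limma), differences are GRK3 minus GFP on that scale, and errors are SD over the 3 arrays of a group or the standard error (SE) of a difference.

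PI3 had strong signal on every array and was lower in the GRK3 cells. Its log2 intensities were 13.51, 13.58 and 13.48 in GFP cells and 12.45, 12.21 and 12.29 in GRK3 cells. The groups did not overlap: the lowest GFP array lay 1.03 above the highest GRK3 array. The difference of -1.20 ± 0.09 (SE) leaves 43.5% of the GFP level in GRK3 cells, a 2.30-fold decrease. As deposited, before any background correction or normalization, the intensities were 10850, 12367 and 12326 in GFP cells and 5727, 5156 and 4555 in GRK3 cells, a ratio of 2.30 between the group means. In the authors' value table, where each array is scaled by 1 factor, the means were 11705 ± 347 and 5147 ± 335 (SD, n = 3 each), a ratio of 2.27. The brightest probe on each array read between 64183 and 66514, so the PI3 probe was well short of the top of the scale.

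PI3 was among the genes whose drop in this contrast led to the choice of the family, so its values are a description and carry no p here. The within-group SDs of PI3 were 0.05 in GFP and 0.12 in GRK3 cells, against a median within-group SD of 0.13 over the 14130 probes detected on at least 3 arrays. Over those probes, limma called 0.573% at an adjusted p under 0.05, and 16.4% had groups that did not overlap. Of the members, PI3 and SLPI reached that detection minimum, and no call is given for either. In 12 alternatives, 6 of them with 1 array left out, the PI3 difference stayed between -1.27 and -1.15.

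SLPI was clearly expressed in both populations, at levels that overlapped between them. Its log2 intensities were 11.72, 11.74 and 11.20 in GFP cells and 11.64, 11.67 and 11.77 in GRK3 cells. GFP replicate 3 was the low one, and the other 5 arrays lay within the narrow band from 11.64 to 11.77. The group means were 11.56 ± 0.30 and 11.70 ± 0.07 (SD, n = 3 each), a difference of 0.14 ± 0.14 (SE) with overlapping groups. Without GFP replicate 3 the difference was -0.03, and in the other 11 alternatives it lay between 0.10 and 0.24. The deposited signals show the same low array, at 2650 for GFP replicate 3 against 3223 and 3540 for GFP replicates 1 and 2 and 3190 to 3498 in GRK3 cells.

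The same PI3 values can be set against SLPI on each array, which adds no second observation of PI3. The log2 ratio of the PI3 probe to the SLPI probe was 1.79, 1.83 and 2.27 in GFP cells and 0.81, 0.54 and 0.52 in GRK3 cells. The groups did not overlap, and the mean log2 ratio differed by -1.34 between GRK3 and GFP cells, and by -1.19 without GFP replicate 3, where SLPI was low. Only this change between groups can be read, because probes differ in brightness for the same amount of RNA. As PI3 was chosen for its drop, the difference between both members was not tested.

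WFDC3, a little-studied member of the family, was not above background on any array. Its log2 intensities were 5.20, 5.34 and 5.25 in GFP cells and 5.21, 5.15 and 5.14 in GRK3 cells, with detection p-values from 0.155 to 0.437. On each array the dimmest detected probe read between 5.66 and 5.79, above all 6 of these values. No fold is given, since both groups were below background. Of the 3 members with a probe, PI3 and SLPI were thus detected on 6 of 6 arrays and WFDC3 on 0 of 6.

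**Figure D1:**
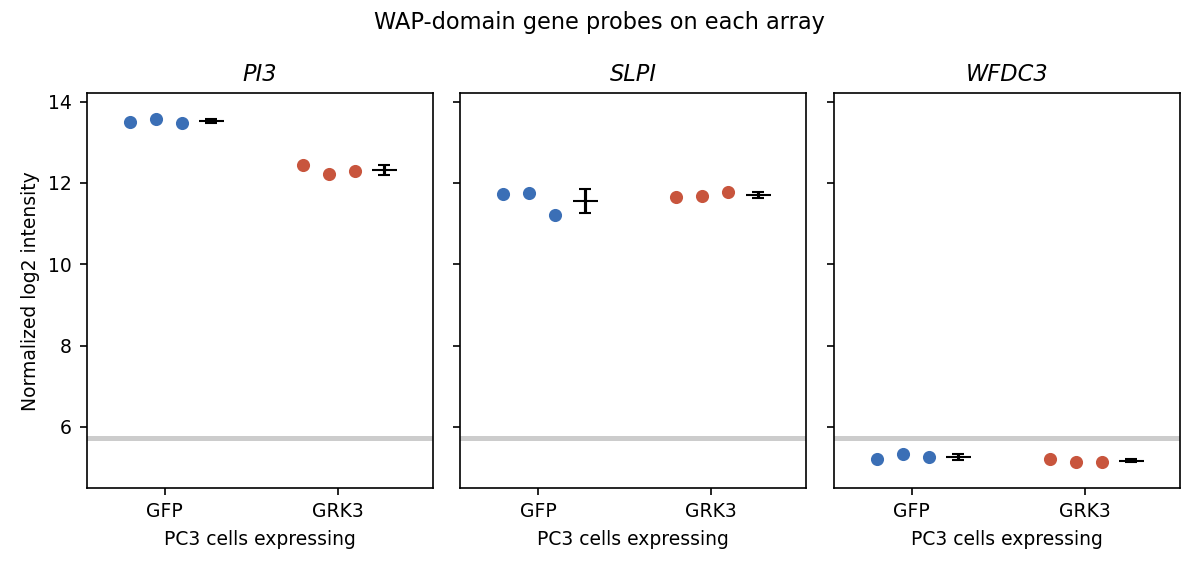
Normalized log2 intensity of the PI3, SLPI and WFDC3 probes on each array. Points are single arrays, bars are mean ± SD (n = 3), and the grey band spans the dimmest detected probe of the 6 arrays (5.66 to 5.79). The 3 GRK3 arrays of PI3 lie below the 3 GFP arrays, 1 GFP array of SLPI sits apart from the other 5, and all WFDC3 values fall under the band.

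Most other genes of the WAP family were below background on these arrays. Of 14 other WAP-domain genes listed, 13 had a probe and 12 of these were not above background on any array: WFDC1, WFDC5, WFDC6, WFDC8, WFDC9, WFDC10A, WFDC11, WFDC12, WFDC13, EPPIN, WFIKKN1 and WFIKKN2. EPPIN encodes a sperm-surface protease inhibitor, and WFIKKN1 and WFIKKN2 encode secreted proteins that bind growth factors of the myostatin type. The remaining gene, WFDC10B, was detected close to background at 1 of its 2 probes, with 5.93 ± 0.08 in GFP and 5.99 ± 0.05 in GRK3 cells (SD, n = 3 each). Its difference was 0.06 (95% interval from -0.14 to 0.26, limma adjusted p = 0.863), and its other probe was not detected on any array.

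No tested neighbour of PI3 on the chromosome passed as lower or higher. In the order of the reference gene table (GRCh38.p14), PI3 lies between WFDC12, which was not detected, and SEMG1, the gene of the seminal clot protein semenogelin-1. SEMG1 was detected on all 6 arrays at 7.20 ± 0.15 in GFP and 7.32 ± 0.05 in GRK3 cells (SD, n = 3 each), a difference of 0.12 (95% interval from -0.10 to 0.35, limma adjusted p = 0.714). It was singled out after its values were seen. From 10 protein-coding genes before PI3 to 10 after WFDC3, 40 neighbours were listed besides the members, 36 had a probe and 16 were tested.

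With limma, 0 of the 16 neighbours passed at an adjusted p under 0.05, and 4 had an unadjusted p under 0.05, 2 in each direction. Over all tested probes 11.6% had an unadjusted limma p under 0.05, the share to set beside such counts here and below. Their differences ran from -0.25 to 0.29, with a median of 0.00 against -0.01 over all tested probes. The highest was that of KCNK15, which was close to background and detected on 1 GFP and 3 GRK3 arrays. PI3 was chosen for its drop, so its place outside this range is no result about the neighbourhood. The nearest tested gene before PI3, the kinase gene STK4, differed by -0.05 (95% interval from -0.24 to 0.14). On the far side of WFDC3, the nearest was DNTTIP1, which encodes a subunit of a histone deacetylase complex and differed by -0.03 (95% interval from -0.29 to 0.23). The brightest neighbours were YWHAB, a 14-3-3 protein gene, with -0.01, UBE2C, a ubiquitin-conjugating enzyme gene of mitosis, with -0.03, and TOMM34, a chaperone of mitochondrial import, with -0.20 (limma adjusted p = 0.975, 0.952 and 0.429).

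**Figure D2:**
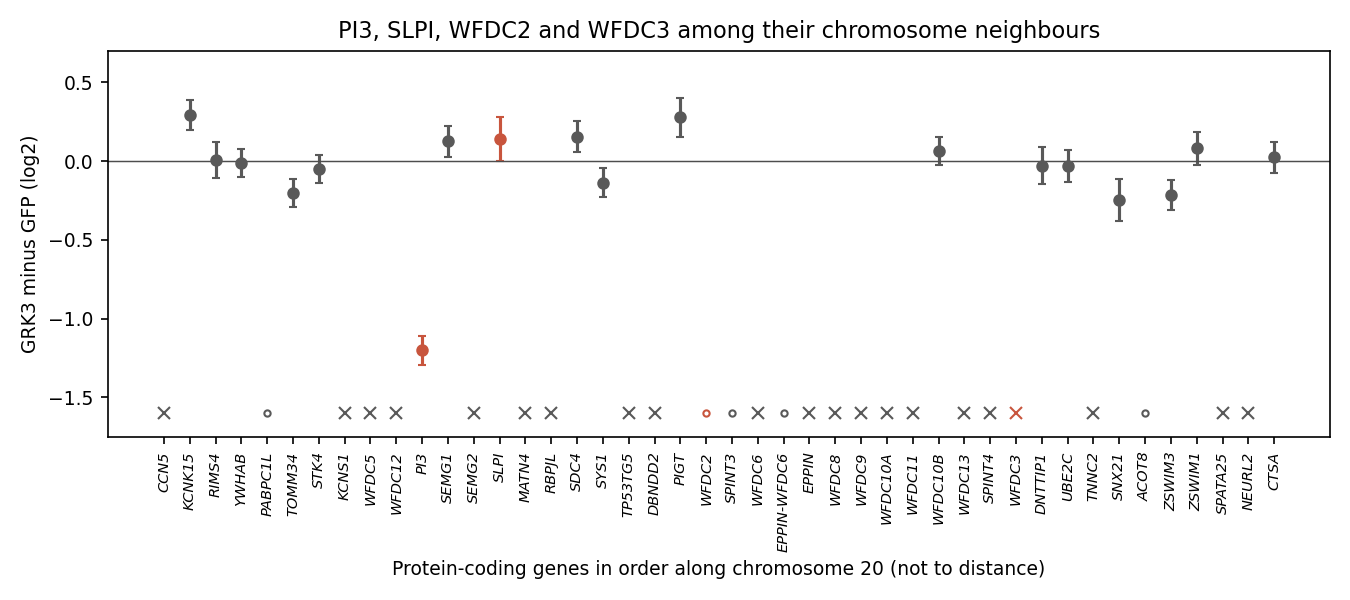
Difference in log2 intensity, GRK3 minus GFP, ± SE for protein-coding genes in their order along chromosome 20, with members in red. Crosses mark genes with a probe but too few detections to test, and small circles genes with no probe named here. PI3, chosen for its drop, is at -1.20, and the 16 tested neighbours run from -0.25 to 0.29.

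The proteases that elafin and SLPI are best known to block were below background in these cells. The genes of neutrophil elastase (ELANE), proteinase 3 (PRTN3) and cathepsin G (CTSG) were not above background on any array. Of 31 serine proteases listed, 30 had a probe and 13 were tested. With limma 0 of the 13 passed, and 1 had an unadjusted p under 0.05. The skin kallikreins KLK5 and KLK7 were detected on all 6 arrays and differed by 0.07 (95% interval from -0.21 to 0.34) and -0.13 (95% interval from -0.37 to 0.11) at their brightest probes. The membrane protease genes ST14 and PRSS8 were at 10.98 in GFP cells and differed by 0.06 (limma adjusted p = 0.916) and 0.18 (0.78). The 1 gene with an unadjusted p under 0.05 was HTRA1, a secreted serine protease, with 0.36 ± 0.08 (SE) and a limma adjusted p of 0.113. The median of the list was 0.07.

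No other inhibitor of serine proteases passed at the probe used for each gene. Of 35 listed, 16 were tested, and limma passed 0 of them, with 3 at an unadjusted p under 0.05 (2 higher and 1 lower). SERPINA1, which encodes alpha-1-antitrypsin, the main plasma inhibitor of neutrophil elastase, differed by 0.05 (95% interval from -0.17 to 0.26). SERPINB1, an intracellular inhibitor of the same enzyme, differed by -0.16 (95% interval from -0.43 to 0.12). The Kunitz-type inhibitors SPINT1 and SPINT2, which restrain matriptase and related proteases, differed by 0.14 (95% interval from -0.13 to 0.41) and 0.08 (95% interval from -0.13 to 0.29).

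The tissue factor pathway inhibitors and SERPIND1 were named after their values were seen. SERPIND1, the gene of heparin cofactor II, had the highest difference on the list at 0.49 ± 0.13 (SE, limma adjusted p = 0.164), and TFPI2 the lowest. TFPI2 read 8.60 to 8.94 in GFP cells and 7.75 to 8.29 in GRK3 cells, with no overlap, and had a difference of -0.75 ± 0.14 (SE) that did not pass (limma adjusted p = 0.0596). TFPI had positive differences at its 3 probes, and they differed in size. The brightest, used for the list, gave 0.37 ± 0.09 (SE, limma adjusted p = 0.111). The dimmest rose by 0.82 ± 0.11 (SE), from 8.79 ± 0.20 to 9.61 ± 0.05 (SD, n = 3 each), with a limma adjusted p of 0.0126. That call was lost when GFP replicate 2 or 3 was left out (0.0828 and 0.0605), and likewise GRK3 replicate 2 (0.0834). Its adjusted p ran from 0.00296 to 0.118 over its alternatives. It was the only call at a probe other than the brightest among all listed genes. The list median over the brightest probes was 0.02.

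Elafin is a transglutaminase substrate and part of the cornified envelope of skin, and genes of that system were tested next. Limma passed 0 of 10 tested genes of 24 listed, with 2 at an unadjusted p under 0.05, both higher, and the median was -0.05. TGM2, tissue transglutaminase, was detected on all 6 arrays and differed by -0.11 at its brightest probe (95% interval from -0.36 to 0.14). Its other probes gave -0.26 and -0.26 (limma adjusted p = 0.372 and 0.334). The envelope genes loricrin (LORICRIN), filaggrin (FLG), SPRR1A, SPRR2A and SPRR3 were not above background on any array, while the envelope precursor gene SPRR1B was detected on 3 of 6.

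The listed partners and substrates of SLPI and elafin gave 7 tested genes, of which limma passed 0, with 1 at an unadjusted p under 0.05. All 7 differences were below 0, from -0.23 to -0.03, with a median of -0.11, beside 52.3% below 0 and a median of -0.01 over all tested probes. TGM2 is on this list and on the one before. GRN, the progranulin gene, differed by -0.03 (95% interval from -0.23 to 0.18). PLSCR1, which encodes a membrane protein reported to bind SLPI, differed by -0.11 (95% interval from -0.33 to 0.12). ANXA2, the annexin A2 gene, also reported to bind SLPI, differed by -0.11 (95% interval from -0.30 to 0.09), and its other probes by -0.16 and -0.08.

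Among secreted epithelial defence genes, S100A8 rose. This gene encodes a subunit of the antimicrobial, metal-binding protein calprotectin. Its log2 intensities were 9.71, 9.87 and 9.59 in GFP cells and 10.55, 10.54 and 10.58 in GRK3 cells. The groups did not overlap, and the difference was 0.83 ± 0.10 (SE, limma adjusted p = 0.00517). Of 17 alternatives the S100A8 call was lost in 1, with the replicate number as a block (limma adjusted p = 0.0683). S100A9, the other calprotectin subunit, differed by 0.39 ± 0.10 (SE) and did not pass (limma adjusted p = 0.142). LCN2, which encodes the iron-scavenging protein lipocalin-2, differed in the direction of PI3 by -0.60 (95% interval from -0.97 to -0.23) and did not pass either (limma adjusted p = 0.182). Limma called 0.375% of all tested probes as higher. Of 8 tested genes of 24 listed, 1 was higher, 0 were lower and 7 did not pass. The list was drawn up with earlier results of these data known, so these counts are not independent evidence. An unadjusted limma p under 0.05 was reached by 6 of the 8, 4 higher and 2 lower, beside 11.6% of all tested probes. DEFB1, 1 of these 6, was detected on 0 GFP and 3 GRK3 arrays, so it was tested only through the group where it read higher. The list median of 0.20 lies between the differences of DEFB1 (0.24) and LYZ (0.15), and nothing is read from it. Many defence genes, among them LTF, CAMP, S100A7, RNASE7, PIGR and DEFB4A, were not above background on any array.

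The next list joined cytokines and receptors described as inducers of elafin or SLPI, mostly in other epithelial cells, with transcription factors and regulators of NF-kB signalling. Among 24 genes tested there, 4 fell and 0 rose, and the other 20 did not pass. These 4 were IL1B, IL1A, IL6 and TNFAIP3, and all were known to be lower in these data when the list was drawn up, so the count is not independent evidence. Limma called 0.198% of all tested probes as lower. With those 4 included, the list had a median of -0.10 and 18 of 24 differences below 0, beside -0.01 and 52.3% over all tested probes. An unadjusted limma p under 0.05 was reached by 9 of the 24, all lower and again with those 4 included, beside 11.6% of all tested probes. Nothing is read from these figures for the same reason.

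IL1B, the gene of interleukin-1 beta and an inducer of elafin, read 11.81, 11.76 and 12.18 in GFP cells and 10.67, 10.32 and 10.41 in GRK3 cells. Its groups did not overlap, and it fell by 1.45 (SE 0.14, limma adjusted p = 0.00179). IL1A, the interleukin-1 alpha gene, was much closer to background, with 6.47, 6.62 and 6.86 in GFP cells and 5.96, 5.82 and 5.99 in GRK3 cells. It fell by 0.73 ± 0.11 (SE, limma adjusted p = 0.0277), and without background correction its difference was -0.41. The IL1A call was lost when either GFP replicate 2 or 3 was left out (0.14 and 0.09), and likewise GRK3 replicate 2 or 3 (0.14 and 0.0717). Over its alternatives the adjusted p of IL1A ran from 0.00895 to 0.14. TNF, the gene of the other classical inducer, was not above background on any array.

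IL6, the interleukin-6 gene, read 8.62, 8.65 and 8.68 in GFP cells and 7.61, 7.51 and 7.45 in GRK3 cells, and fell by 1.13 ± 0.09 (SE, limma adjusted p = 0.000825). TNFAIP3, the gene of A20, which dampens NF-kB signalling, read 7.38, 7.52 and 7.38 in GFP cells and 6.65, 6.60 and 6.39 in GRK3 cells. It fell by 0.88 ± 0.10 (SE, limma adjusted p = 0.00509). Of 17 alternatives the TNFAIP3 call was lost in 1, with the replicate number as a block (limma adjusted p = 0.0654). Without background correction the differences were smaller, at -0.55 for TNFAIP3 and -0.88 for IL6. In both genes all GRK3 arrays lay below all GFP arrays.

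The transcription factors on the list did not pass. The NF-kB subunit genes RELA and NFKB1 differed by -0.28 (95% interval from -0.54 to -0.01, limma adjusted p = 0.411) and -0.09 (95% interval from -0.29 to 0.12). CEBPB, whose product binds promoters of acute-phase and cytokine genes, differed by -0.03 (95% interval from -0.31 to 0.25). ELF3, an epithelial ETS factor, differed by 0.16 (95% interval from -0.19 to 0.51). FOSL1, an AP-1 subunit gene named after its values were seen, had the largest difference among the factors that did not pass, at -0.58 ± 0.11 (SE, limma adjusted p = 0.0567).

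**Figure D3:**
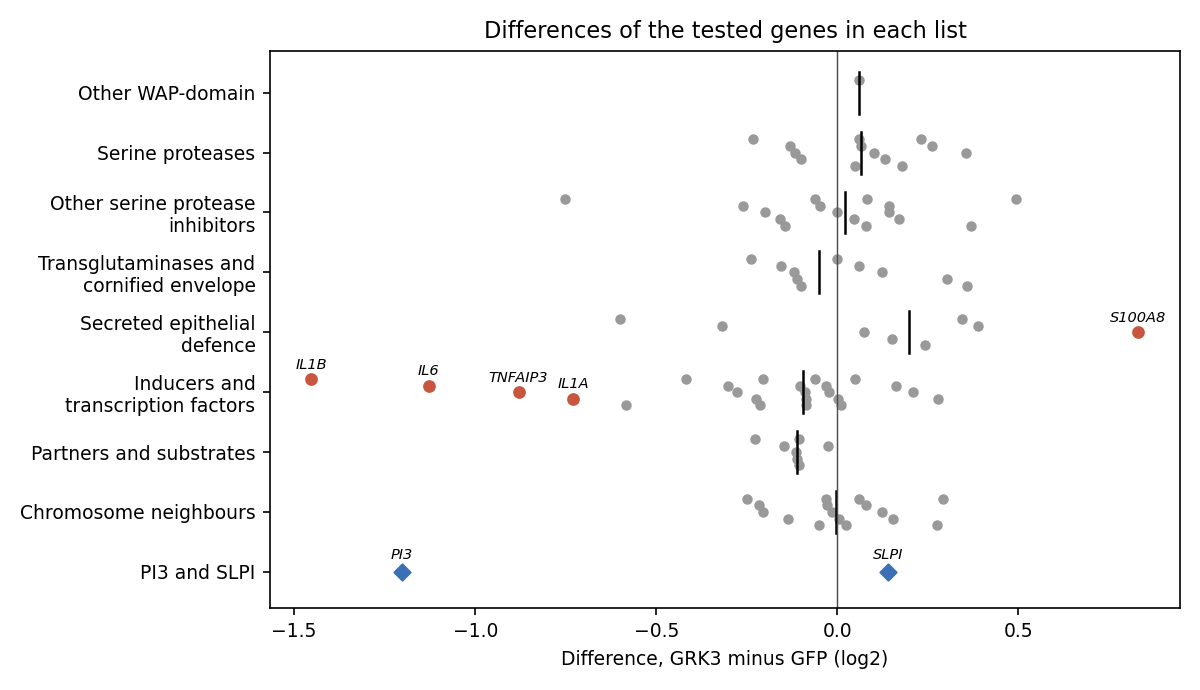
Difference in log2 intensity, GRK3 minus GFP, for each tested gene of the 8 lists, with black lines at list medians. Red points passed limma at an adjusted p under 0.05, grey points did not, and blue diamonds show PI3 and SLPI, which carry no test. The points that passed are IL1B, IL6, TNFAIP3 and IL1A on the lower side and S100A8 on the higher side.

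Over the 8 lists together, 93 genes were tested once each and 5 passed (5.38%), 4 lower and 1 higher. All lists were drawn up with earlier results of these data known, and the 4 lower genes were known to be lower. This share is therefore not independent evidence. Leaving out GRK3 replicate 1 raised the count of 5 to 8, and without any other single array it was 4 or 5. Over all 14130 tested probes 81 passed (0.573%), 53 higher and 28 lower. The count of 81 became 39, 24 and 30 without GFP replicates 1, 2 and 3, and 190, 23 and 36 without GRK3 replicates 1, 2 and 3.

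The genes whose profile over the 6 arrays was most like that of PI3 were IL6, NUP98, TNFAIP3, PODNL1 and IL1B. Likeness was measured as Pearson's r over 6 arrays among 602 tested named probes with an SD of at least 0.3, and is a description that mostly follows the difference between groups. The r with PI3 was 0.995 for IL6, 0.986 for NUP98, 0.984 for TNFAIP3, 0.976 for PODNL1 and 0.975 for IL1B. NUP98 encodes a nuclear pore protein, and the probe most like PI3 is 1 of several for that gene. That probe read 8.55, 8.48 and 8.55 in GFP cells and 7.20, 7.25 and 7.27 in GRK3 cells. It was picked for its likeness and the other NUP98 probes are not given here, so these values stand for the probe and not for the gene. PODNL1, a small leucine-rich proteoglycan gene, read 8.33, 8.32 and 8.26 against 5.75, 6.10 and 6.12. Its GRK3 values were close to background, where the dimmest detected probes read 5.66 to 5.79. The size of the PODNL1 drop is therefore uncertain. Ranked by Spearman's rho, 1 of these 5 genes was also among the first 5.

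For SLPI, whose own SD over the arrays was 0.21, the genes most like it were POFUT4, PERP, CTNNB1, USP21 and P4HA1, with r from 0.879 to 0.951. What these genes share with SLPI is the low value of GFP replicate 3. PERP, a desmosome and p53-response gene, read 11.70, 11.63 and 11.06 in GFP cells and 11.82, 11.64 and 11.92 in GRK3 cells. The beta-catenin gene CTNNB1, at the probe most like SLPI, read 7.40, 7.06 and 6.19 against 7.05, 7.38 and 7.76. In all 5 genes GFP replicate 3 was the lowest of the 6 arrays. Their limma adjusted p-values for the group difference lay between 0.404 and 0.951. The 5 genes were picked for likeness to SLPI, whose spread comes mostly from GFP replicate 3. Their low value on that array is thus largely a result of the choice. Whether a property of that array sets the low SLPI value was not tested.

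**Figure D4:**
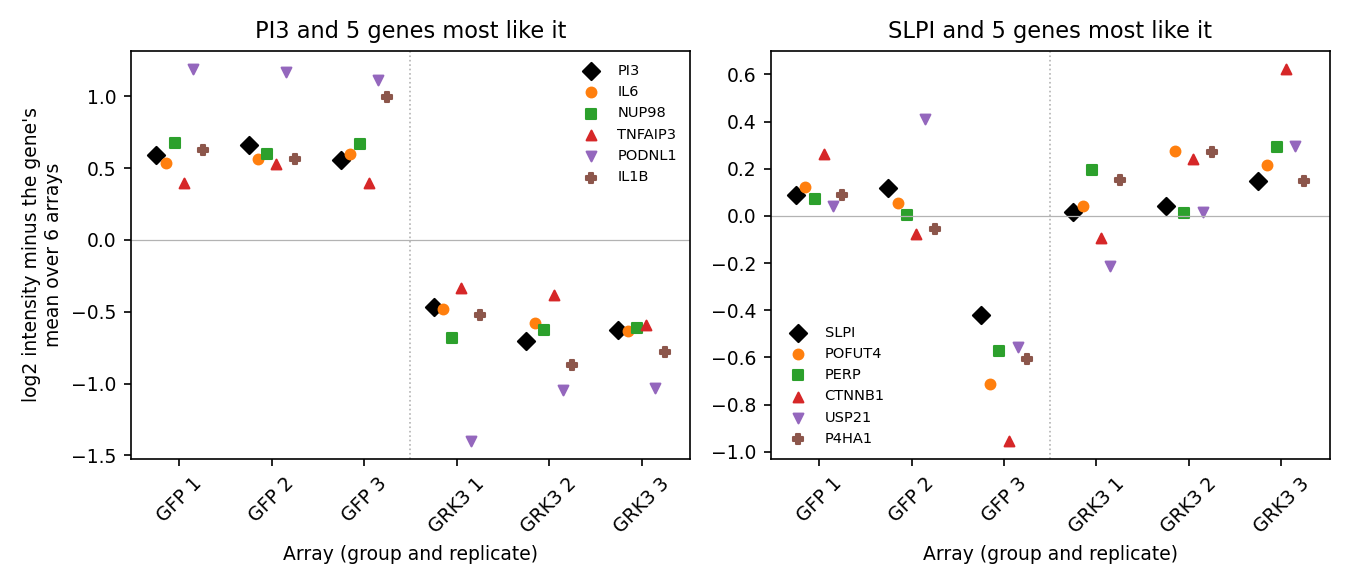
Log2 intensity on each array minus the gene's mean over the 6 arrays, for PI3 and the 5 genes most like it (left) and for SLPI and its 5 (right), with a dotted line between the groups. On the left all GFP arrays lie above 0 and all GRK3 arrays below it. On the right GFP replicate 3 is the lowest array for SLPI and each of the 5 genes.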

How the data were processed

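The authors deposited average bead intensity per probe, not normalized per the file headers, beside each probe's detection p-value. Their deposited value table holds intensity too, equal to the first table times 1 factor per array (0.931 to 1.10). The sources used here name no scanner software. Probes were named from the platform annotation (21834 with 1 symbol, 2692 with none, 0 with several), with symbols checked through the Entrez identifier.

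Intensities were processed by limma (3.58.1, function neqc, offset 16) under R 4.3.3. Probes with a detection p-value under 0.05 on at least 3 of 6 arrays were tested (14130) with lmFit and eBayes, two-sided, no covariate, with Benjamini-Hochberg adjustment. A listed gene was represented by its brightest tested probe.

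The members and lists were chosen with earlier results of these data known. Genes named are the members, list genes that passed, a preset set of 20 and the 5 genes most like each member. Also named are chromosome neighbours (the nearest tested on each side and 3 bright ones). Others are described as singled out, or are examples of detected or undetected genes. Alternatives covered background, offset, scaling, source table, detection filters, variance trend, array weights, replicate block, probe averaging and single arrays left out.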

Additional observations from a re-analysis of the deposited data

How the results depend on the processing

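The PI3 and SLPI differences moved by less than their SD pooled over both groups (0.09 and 0.22) under all 12 alternatives run for them, SLPI changing sign only without GFP replicate 3 (-0.03). The count of 81 called probes was 239 with array weights, 136 with an intensity trend, 140 with no background correction, 122 with an offset of 50 and 23 with no detection filter, and ran from 23 to 190 with 1 array left out. The count of 5 called list genes was 8 with array weights, 9 with an intensity trend, 9 with no background correction and 8 with an offset of 50, and ran from 4 to 8 with 1 array left out. Lower calls were 34.6% of all calls, and 49.1% with the authors' value table. The replicate numbers are not stated to mark a shared culture or day, and same-numbered arrays did not deviate together (correlations -0.41, 0.18 and -0.41), while different-numbered arrays gave -0.21 to 0.51, the highest being GFP replicate 3 with GRK3 replicate 1. With the replicate block 11 probes passed, 63.6% of them lower, and 2 list genes passed, IL1B and IL6. TNFAIP3 (limma adjusted p = 0.0654, range over its alternatives 0.00221 to 0.0654), S100A8 (0.0683, range 0.000949 to 0.0683) and IL1A (0.13, range 0.00895 to 0.14) did not pass with it. The IL1A call was also lost in the authors' value table (0.0503) and with no detection filter (0.0824), and the TFPI probe did not pass with no detection filter (0.0617) or the replicate block (0.118). The causes were not tested. Signal near background limits what can be said of WFDC3, WFDC10B, the undetected proteases and the size of the PODNL1 drop.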
